A study of Homo sapiens with 7 samples.

Results

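The urea cycle genes of HepG2 were examined here, which are CPS1, OTC, ASS1, ASL, ARG1, ARG2 and NAGS. They were chosen by symbol, and all 7 were found, each in 1 row, among 22113 named loci of the expression table. These loci lie on the main chromosomes and are listed with the status OK or NOTEST. HepG2 is a human liver cancer cell line that is widely used as a model of hepatocytes. The data consist of 7 samples of HepG2 cells with 1 library per assay, which are RNA-Seq, native MNase-Seq for nucleosome positions, and ChIP-Seq of the activation marks H3K27ac, H3K9ac and H3K4me3 and the silencing marks H3K9me3 and H3K27me3. There are no replicates and no groups, so no P value was computed, and how far the values vary between cultures is unknown.

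The urea cycle is the pathway by which the liver turns toxic ammonia into urea. NAGS makes N-acetylglutamate, the obligate activator of CPS1, and CPS1 joins ammonia and bicarbonate in the mitochondrion. OTC then forms citrulline, and in the cytosol ASS1, ASL and ARG1 complete the cycle with arginine and urea. ARG2 is the mitochondrial arginase, which is best known from tissues other than the liver. Inherited loss of an enzyme of the cycle leads to high blood ammonia. H3K4me3 is a mark of active promoters, H3K9ac and H3K27ac mark active promoters, and H3K27ac marks active enhancers as well. H3K27me3 and H3K9me3 are marks of silent chromatin.

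The cell type was checked with hepatocyte genes. All 8 examined, AFP among them, were above an FPKM (fragments scaled to transcript length and to the size of the library) of 1. They ran from 56.6 for FGB to 10011 for ALB, while 51.3% of all named loci were at 1 or more. Among 5 markers of other cells, 4 were below 1 and PTPRC was listed at 0. The exception was CD68, whose row holds 7 symbols including EIF4A1, so its 543 FPKM does not belong to CD68 alone.

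In the mitochondrial steps of the cycle, CPS1 had the highest expression and OTC the lowest. The RNA-Seq table holds 2 FPKM columns, here called run 1 and run 2. NAGS had 2.84 FPKM in run 1 and 2.57 in run 2. CPS1 had 13.3 and 12.9 FPKM. OTC had 0.563 and 0.569 FPKM and was the only gene of the 7 below 1 in both runs. On this scale, which is per length and can be compared between genes, CPS1 was 23.1-fold above OTC and 4.84-fold above NAGS.

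In the cytosolic steps, the FPKM was lower at each step from ASS1 to ARG1. ASS1 had 94.0 FPKM in run 1 and 89.9 in run 2, the highest of the 7 genes. ASL had 31.7 and 29.8 FPKM. ARG1, the arginase of normal hepatocytes, had only 1.83 and 1.77 FPKM. ARG2 had 22.4 and 21.8 FPKM, and its mean was 12.3-fold that of ARG1. ASS1 was 162-fold above OTC, whose product it uses.

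The order of the means was ASS1, ASL, ARG2, CPS1, NAGS, ARG1 and OTC, and the runs did not overlap between any of the 6 pairs of neighbours in this order. The runs differed by 0.961% to 9.92% of the mean, with the largest difference in NAGS. Whether the runs came from separate cultures is not stated, so this spread may be only technical. Among all named loci, 51.3% had an FPKM of at least 1, against 6 of the 7 urea cycle genes, and 38.6% had at least 5, against 4 of the 7. The median of the 7 genes was 13.1 FPKM, beside a median of 11.9 over all named loci at 1 or more. ASS1 was at the 96.4 percentile of the named loci, ASL at 88.3, ARG2 at 84.1, CPS1 at 75.9, NAGS at 55.2, ARG1 at 52.3 and OTC at 45.6.

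The strand of the RNA-Seq library is not stated, and this bears on several of these levels. In RefSeq, 10364 of the 11104 bp of ARG1 lie inside MED23, a Mediator subunit gene on the opposite strand that had 17.1 FPKM. ARG2 overlaps VTI1B by 4624 bp, and the table gives VTI1B and RDH11 together 89.3 FPKM. ASS1 has many processed pseudogenes, and how reads shared with them were counted is not stated. The FPKM of ARG1, ARG2 and ASS1 are uncertain to that extent.

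**Figure D1:**
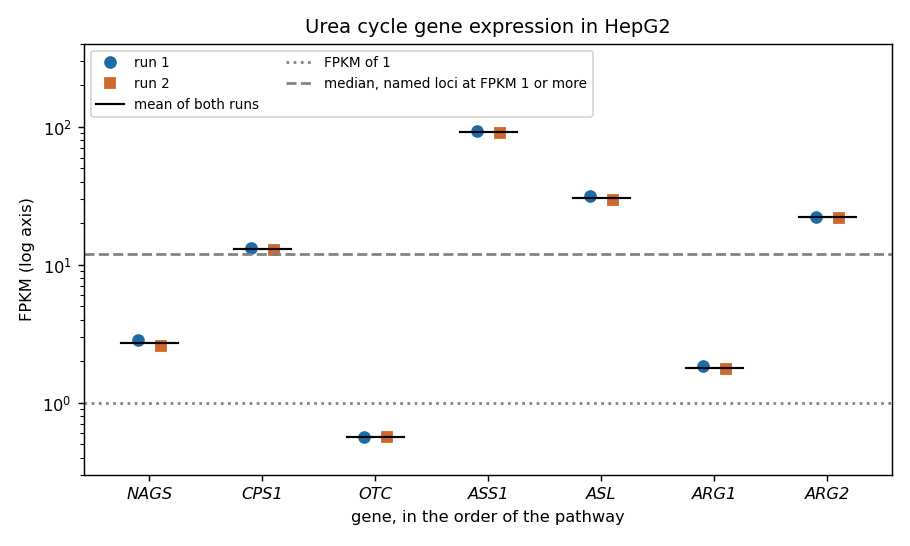
FPKM of the 7 urea cycle genes on a log axis, in run 1 (circles) and run 2 (squares), with the mean as a bar. ASS1 is at the top with 94.0 and 89.9, OTC is below the dotted line at 1 with 0.563 and 0.569, and CPS1 lies just above the dashed line, which is the median of 11.9 over all named loci at 1 or more.

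The promoters of the 7 genes differed widely in their number of CpG dinucleotides. RefSeq (GRCh38.p14) has a start for each of the 7 genes, with 3 starts for CPS1 and 2 for ASS1, all on the plus strand. The 250 bases before the start are shown for a pair of genes with few CpG dinucleotides, OTC and ARG1, and for a pair with many, ASL and ARG2, each 5′ to 3′ with every CpG in capitals. OTC is at chrX:38352354-38352603, ARG1 at chr6:131572976-131573225, ASL at chr7:66075569-66075818 and ARG2 at chr14:67619670-67619919, and these positions are not on the scale of the hg19 coordinates given for the marks.
OTC: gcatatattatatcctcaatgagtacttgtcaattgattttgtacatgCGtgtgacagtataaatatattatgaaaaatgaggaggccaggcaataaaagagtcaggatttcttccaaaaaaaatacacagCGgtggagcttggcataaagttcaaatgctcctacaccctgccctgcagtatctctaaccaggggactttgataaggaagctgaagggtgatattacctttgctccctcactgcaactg
ARG1: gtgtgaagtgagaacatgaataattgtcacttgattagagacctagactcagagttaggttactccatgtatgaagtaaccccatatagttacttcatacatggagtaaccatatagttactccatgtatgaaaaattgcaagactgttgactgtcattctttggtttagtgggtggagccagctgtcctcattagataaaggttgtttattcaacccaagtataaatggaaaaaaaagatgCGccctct
ASL: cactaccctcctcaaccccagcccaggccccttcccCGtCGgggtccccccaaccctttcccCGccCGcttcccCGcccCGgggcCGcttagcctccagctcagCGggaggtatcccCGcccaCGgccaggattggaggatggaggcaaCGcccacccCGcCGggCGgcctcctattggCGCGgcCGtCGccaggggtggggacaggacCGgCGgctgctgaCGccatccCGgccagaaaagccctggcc
ARG2: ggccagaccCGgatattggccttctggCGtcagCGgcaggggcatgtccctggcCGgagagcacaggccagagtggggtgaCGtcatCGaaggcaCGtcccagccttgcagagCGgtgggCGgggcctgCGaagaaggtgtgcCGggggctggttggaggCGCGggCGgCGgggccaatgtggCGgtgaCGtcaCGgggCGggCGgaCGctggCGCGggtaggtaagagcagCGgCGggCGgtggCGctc

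ARG1 had 1 CpG in its 250 bases and OTC had 2, against 22 in ASL and 27 in ARG2. The median over 35116 RefSeq promoters of the same length was 11, with a 10th percentile of 1 and a 90th percentile of 31. NAGS had 13, and ASS1 had 21 at its first start and 24 at its second. CPS1 was also poor, with 1 CpG before its first start and 3 before each of the others. The letters of a TATA box, TATAAA, were searched on both strands and found in 10.7% of promoters, and among these genes in ARG1, starting 29 bases before the start, and in OTC, starting 192 bases before it. The cyclic AMP response element TGACGTCA was in 1.65% of promoters, and ARG2 held it at 2 places, 64 and 172 bases before the start. GGGCGG, the GC box, was in 42.6% of promoters, and among these genes it was before the starts of ASS1, ASL, ARG2 and NAGS but not before those of CPS1, OTC and ARG1. CCAAT was in 32% of promoters and was found in ASL, ARG2 and the second start of CPS1. The C/EBP core TTGCNNAA (9.05% of promoters) and the nuclear receptor half-site AGGTCA (12.1%) were in none of these windows. A match gives only that the letters are there, and no match says nothing about binding elsewhere.

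A nucleosome position was called marked if a ChIP-Seq peak carried its identifier, and the positions were counted over the listed locus plus 10 kb on either side. The peak lists give no height, so the depth behind a position is unknown, and an unmarked position is one with no called peak. Over the 7 windows, 118 of 3492 positions had a peak of any of the 5 marks, a share of 3.38% (exact Clopper-Pearson 95% interval 2.80 to 4.03, which covers counting error only). Of these, 87 carried H3K27ac, 62 H3K4me3, 56 H3K9ac, 3 H3K9me3 and 1 H3K27me3. In the whole genome, 203848 of 14217405 positions (1.43%) were marked in the deposited lists. The paper reports a larger number and a larger share of modified nucleosomes. A position unmarked here may therefore have been marked in its own count. Windows around named loci at an FPKM of 1 or more had a median of 3.64%.

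All 7 genes had a marked position in their window, as had 90.0% of all named loci. The number was 25 for ASS1, 22 for CPS1, 21 for ARG2, 19 for NAGS, 18 for ARG1, 7 for ASL and 6 for OTC. The share of marked positions ran from 1.78% (0.654 to 3.82) in OTC and 1.84% (1.16 to 2.77) in CPS1 to 6.04% (3.95 to 8.79) in ASS1. The intervals of the other 4 genes all overlapped that of ASS1. OTC had only 3.80 listed nucleosome positions per kb, against 5.20 to 5.54 in the other 6 windows, but the median of named loci on the X chromosome was 3.61 per kb.

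H3K4me3, H3K9ac and H3K27ac together at a position, here called trivalent, were found at 9 positions for ASS1, 8 for ARG2, 8 for NAGS, 5 for ASL, 5 for ARG1, 3 for CPS1 and 0 for OTC. The 6 genes with a trivalent position stand against 63.2% of all named loci, but the trivalent positions of ARG1 and ARG2 lay beside neighbouring genes, as described below. The windows ran from 37.9 kb for ASL to 222 kb for CPS1, beside a median of 56.6 kb over all named loci. H3K27ac alone was the most common combination, with 41 positions against 38 trivalent ones. It made up all 6 marked positions of OTC and 11 of the 18 of ARG1, and NAGS had none.

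**Figure D2:**
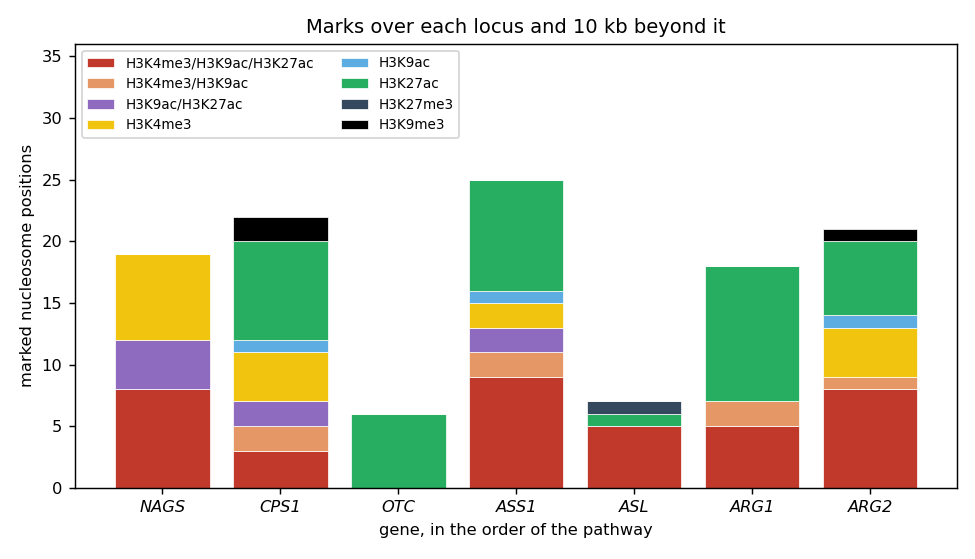
Number of marked nucleosome positions over each locus and 10 kb beyond it, stacked by the exact combination of marks, for the 7 genes in pathway order. OTC holds only the H3K27ac colour (6 positions), ARG1 has 11 positions of it, and the trivalent combination at the base of each bar is largest in ASS1 with 9.

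These windows hold neighbouring genes as well, because the table joins overlapping genes into a single locus. The listed locus of ARG1 is 55068 bp long and is shared with MED23, that of ARG2 is 75946 bp long and is shared with RDH11 and VTI1B, and that of NAGS is 57225 bp long and is shared with PYY. CPS1 shares its coordinates with CPS1-IT, which had 0.0171 FPKM. With windows of the RefSeq length of each gene plus 10 kb, chosen after the positions had been seen, ARG1 had 11 marked positions and 0 trivalent ones, and ARG2 had 9 and 0. All 7 windows together then had 95 marked and 25 trivalent positions. The positions are therefore described by stretch, in which neighbouring marked positions are at most 1 kb apart.

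**Figure D3:**
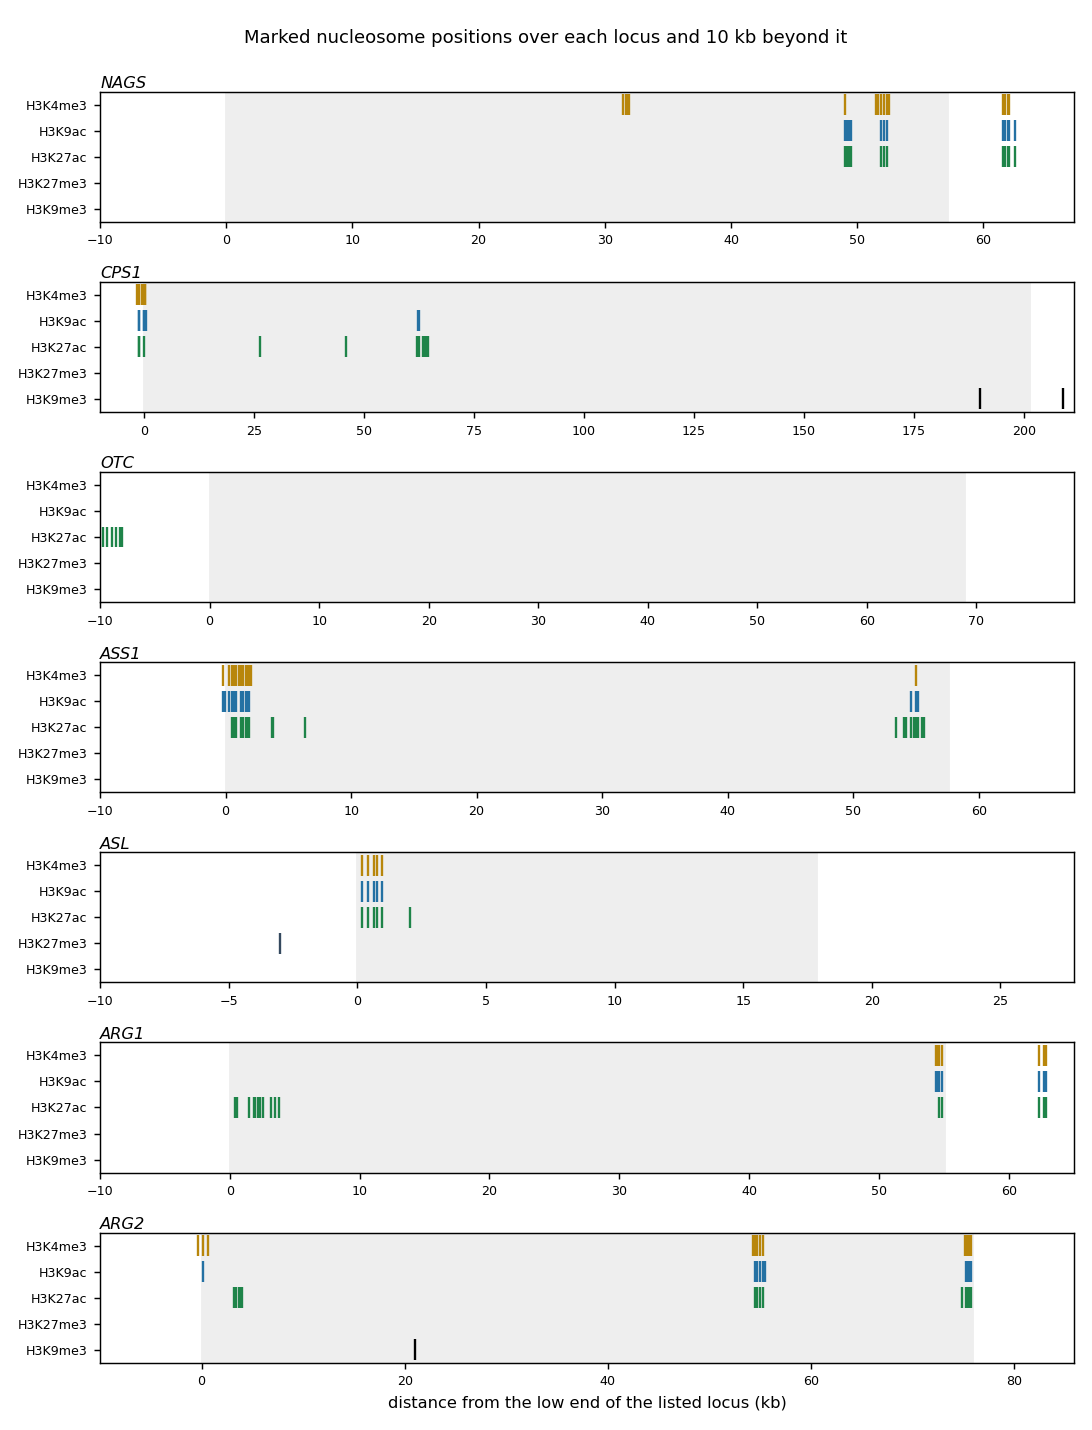
Each of the 5 marks (rows) along each window, where a bar is a marked nucleosome position and the x axis is the distance in kb from the low end of the listed locus, shaded in grey. The marks of OTC lie only from -9.73 to -7.98 kb, and those of ARG1 fall into H3K27ac alone up to 3.77 kb and stretches with all 3 activation marks near the listed starts of MED23 and ENPP3.

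ASS1 and ASL carried the trivalent mark just downstream of their own start, at consecutive positions in ASL and with 1 position of H3K4me3 alone in between in ASS1. ASS1 is listed on chromosome 9 from 133320093 to 133377722. From 133319852 to 133322191, all 13 listed nucleosome positions were marked. In order, the first 3 carried H3K4me3/H3K9ac, H3K9ac alone and H3K4me3/H3K9ac, and were followed by 3 trivalent positions, 1 with H3K4me3 alone, 5 trivalent positions and 1 more with H3K4me3 alone. The 8 trivalent positions lay 0.546 to 1.87 kb downstream of the start. ASL is listed on chromosome 7 from 65540775 to 65558652. Its 5 trivalent positions, from 65540887 to 65541821, were consecutive and included all the positions listed there, and the next marked position, 2.03 kb downstream, carried H3K27ac alone. A position with H3K27me3 lay 2.99 kb upstream of ASL, the only such position among the 7 genes.

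ASS1 had a further stretch of marks at the far end of the gene. From 133373410 to 133375826, 53.4 to 55.7 kb downstream of the start and inside the locus, 9 of 14 listed positions were marked. H3K27ac alone was at 6 of them, H3K9ac/H3K27ac at 2 and the trivalent mark at 1, so all 9 carried H3K27ac. No other named locus overlaps this window.

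CPS1 carried activation marks at its first listed start, but this region is shared with another gene. CPS1 is listed on chromosome 2 from 211342339 to 211543892, and LANCL1, a glutathione-binding protein gene with 50.8 FPKM on the opposite strand, ends only 16 bp below it, so the starts of both genes lie side by side. From 211340682 to 211342886, 10 of 12 positions were marked, with 4 of H3K4me3 alone, 2 of H3K4me3/H3K9ac, 3 trivalent and 1 of H3K9ac alone. Of the 3 trivalent positions, 2 lay upstream of CPS1, at -1.05 and -1.21 kb on the side of LANCL1, and 1 lay 0.0720 kb downstream. Which of both genes these marks belong to cannot be told apart. Deeper in the gene, from 211404377 to 211407026 and 62.1 to 64.6 kb downstream, 8 positions carried H3K27ac, 2 of them with H3K9ac, and none had H3K4me3. The other RefSeq starts of CPS1 are 42 and 115.7 kb from the first (GRCh38), so neither is at that distance. Single positions with H3K27ac alone lay 26.4 and 45.9 kb downstream, and H3K9me3 was at 2 isolated positions, 190 kb downstream and, beyond the end of the locus, 209 kb downstream.

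ARG1 carried H3K27ac but no H3K4me3 just downstream of its start, and OTC carried H3K27ac only upstream of its listed locus. ARG1 is listed on chromosome 6 from 131894364 to 131949432. From 131894724 to 131898206, 0.429 to 3.77 kb downstream of the start, 11 of 20 listed positions carried H3K27ac, and none of them carried another mark. The 5 trivalent positions in the window lay farther off. Of these, 2 were within 1 kb of the high end of the locus, where the start of MED23 is listed, and 3 were from 131956662 to 131957324, beside the start of ENPP3, an ectonucleotidase gene with 24.5 FPKM. OTC is listed on chromosome X from 38211735 to 38280703 and had no marked position inside the locus. This locus is 68968 bp long, whereas RefSeq gives OTC a length of 95245 bp. The 6 positions listed from 38201932 to 38203821, between -9.73 and -7.98 kb from the start, all carried H3K27ac alone. This upstream stretch sits close to the edge of the window, and with 5 kb on either side OTC had 0 marked positions, while with 20 kb it had 7. As background, a liver enhancer upstream of the gene is known in rodents.

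ARG2 had few marks at its start, and its trivalent positions lay beside its neighbours. ARG2 is listed on chromosome 14 from 68086567 to 68162513. Within 2 kb of the start, 3 of 17 positions were marked, with H3K4me3 alone at -0.346 and 0.636 kb from the start and H3K4me3/H3K9ac at 0.184 kb. From 68089717 to 68090611, 3.22 to 3.97 kb downstream, 5 consecutive positions carried H3K27ac alone. All 8 trivalent positions of the window were in stretches 54.2 to 55.5 kb and 74.9 to 75.8 kb from the start. RefSeq places the start of VTI1B, a SNARE protein gene, 54.7 kb from that of ARG2 (GRCh38), and the high end of the locus is the listed start of the row with RDH11, a retinol dehydrogenase gene. H3K9me3 was at 1 position, 21.1 kb downstream.

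NAGS could not be given a start from the table, since its locus on chromosome 17 from 42030106 to 42087331 begins with PYY, a gut peptide hormone gene with 0.0215 FPKM. In RefSeq the starts of PYY and NAGS lie 177 bp apart and both genes are transcribed away from each other, with NAGS starting 51.9 kb from the low end of PYY (GRCh38). A stretch of 6 consecutive marked positions lay 51.5 to 52.6 kb from the low end of the locus, from 42081532 to 42082731, with 3 trivalent positions in the middle and H3K4me3 alone at the other 3. Another 4 positions, 49.0 to 49.5 kb from the low end, carried H3K9ac/H3K27ac, 1 of them with H3K4me3. A group of 4 positions with H3K4me3 alone lay 31.5 to 31.9 kb from the low end. The remaining 5 positions, 4 of them trivalent, were beyond the locus within TMEM101, which had 36.2 FPKM.

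**Figure D4:**
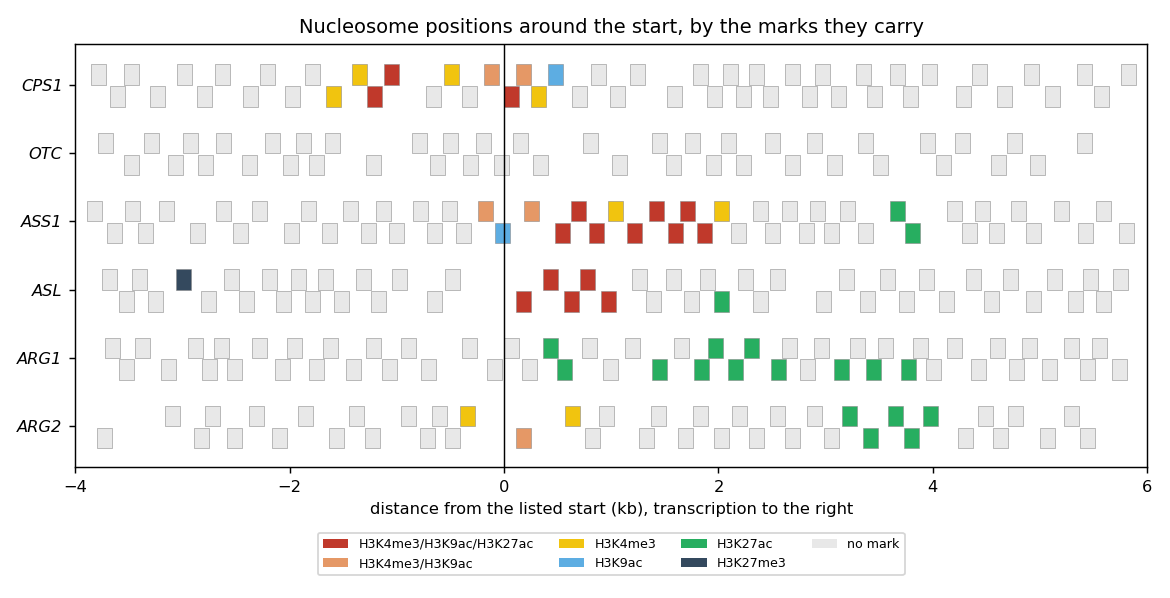
Nucleosome positions from 4 kb upstream to 6 kb downstream of the listed start of the 6 genes that have one, coloured by the marks they carry, with unmarked positions in grey and neighbours drawn at alternating heights. The red trivalent positions lie downstream of the start in ASS1 (8) and ASL (5), ARG1 has 11 green positions of H3K27ac alone, and OTC has no coloured position.

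H3K27me3 or H3K9me3 was found in the windows of 3 of the 7 genes, ASL, CPS1 and ARG2, with 4 positions in all, a share near the 46.9% of all named loci with at least 1. The other genes had no position with either mark, both OTC and ARG1 with low expression and NAGS and ASS1, the highest of the 7.

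The trivalent positions within 2 kb of the start were next set beside the expression. There were 8 for ASS1, 5 for ASL, 3 for CPS1 and 0 for OTC, ARG1 and ARG2. So 3 of the 6 genes with a listed start had at least 3, against 27.8% of 13714 loci with a start of their own. Those loci leave out any with shared coordinates, which CPS1, ARG1 and ARG2 have. For CPS1 the count is that of the first of its 3 RefSeq starts, and no trivalent position lay farther downstream in its window. Which start is used in HepG2 was not tested. The count of CPS1 also rests on the region shared with LANCL1. Without the positions nearer to the start of LANCL1, CPS1 had 1, and 2 of the 6 genes had at least 3. This alternative was added after the data had been seen. Within 1 kb of the start CPS1 also had 1 and ASS1 had 3, and again 2 of the 6 genes had at least 3. With the start of NAGS set by the length of PYY, also added later, NAGS had 3. OTC and ARG1 had no H3K4me3 position within 2 kb of the start, as had 45.9% of these loci. Among the 6609 loci with their own start and an FPKM of at least 1, 562 (8.50%) had none.

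Against loci with as many trivalent positions, ARG2 was the farthest from the middle. Among 7832 loci with 0 trivalent positions within 2 kb, the median FPKM was 0.0163 and the 90th percentile 2.32, and ARG2 with a mean of 22.1 was at the 97.8 percentile. Most of this group, 6293 loci with a median of 0.00416 FPKM, had no H3K4me3 position within 2 kb at all. ARG2 had 3 such positions, so it is set mainly against loci unlike it. Its FPKM is also uncertain because of the overlap with VTI1B. ARG1 with 1.80 was at the 88.9 percentile and OTC with 0.566 at the 83.1 percentile of the same group. ASS1 with 91.9 was at the 89.2 percentile of 111 other loci with 8, ASL with 30.7 was at the 68.9 percentile of 668 other loci with 5, and CPS1 with 13.1 was at the 53.0 percentile of 1255 loci with 3. The arrangement of ARG1, with no H3K4me3 and at least 3 positions of H3K27ac alone within 2 kb, was found at 37 of the 13714 loci (0.270%). This category was drawn from the marks of ARG1 itself, so its share is a description only. ARG1 is not among the 13714 loci, because its coordinates are shared with MED23. The 37 loci had a median of 1.55 FPKM, and 21 of them (56.8%) had an FPKM of at least 1, beside 6609 of all 13714.

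**Figure D5:**
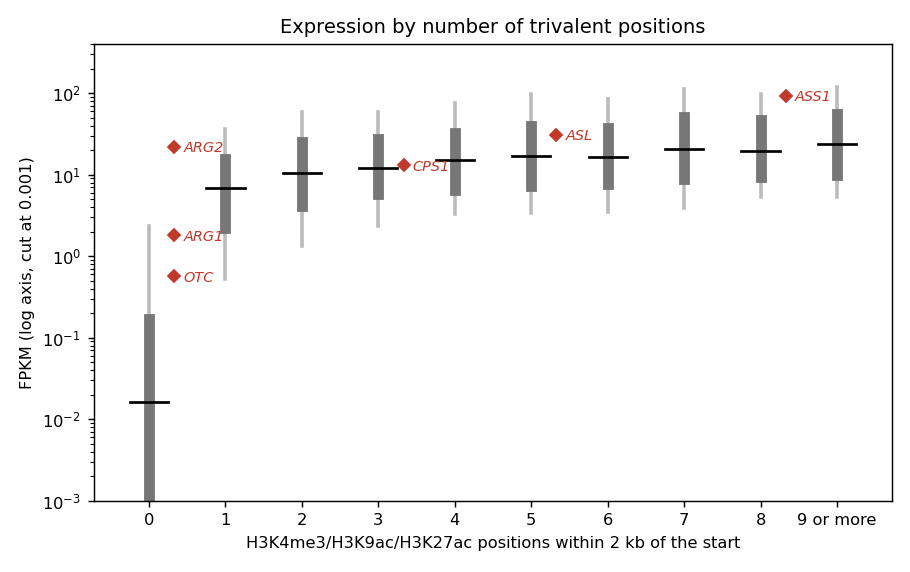
FPKM on a log axis against the number of trivalent positions within 2 kb of the start, for 13714 loci with their own start (thin bars are the 10th to 90th percentile, thick bars the quartiles, black lines the median) and 6 urea cycle genes (red diamonds). ARG2 with 22.1 FPKM lies far above the 90th percentile of 2.32 at 0 trivalent positions, whereas CPS1 with 13.1 is at the median of its group. Most loci at 0 had no H3K4me3 position within 2 kb, unlike ARG2.

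The genes with the most similar pattern were found by Pearson's r over 200 values, which are the 5 marks in 40 bins of 500 bp around the start, and these r are descriptions of 1 set of libraries. For ASL the nearest were ZSCAN12 (r of 0.975) and MAPK8 (0.967), for ASS1 they were LRP4 (0.909) and STX16 (0.906), and for CPS1 they were ACTR6 (0.883) and HSPBAP1 (0.868). OTC was nearest to GUCA1B (0.813) and H1FOO (0.807), ARG2 to ST18 (0.757) and LOC100129316 (0.738), and ARG1 to LOC646982 (0.752) and S100A2 (0.7495). The FPKM of these 12 genes ran from 0 to 38.7. Several patterns were nearly empty, with 6 marked positions within 10 kb of the start for OTC and 8 for ARG2. GUCA1B and ST18 held only 3 marks each, so such an r rests on few of the 200 values.

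Of 34 further genes of nitrogen metabolism, 31 had an FPKM of at least 1, against 51.3% of all named loci, and their median of 50.5 FPKM was above the 13.1 of the 7 urea cycle genes. Among the mitochondrial carriers, SLC25A13, which exports aspartate for ASS1, had 43.9 FPKM, SLC25A15, the ornithine carrier, had 15.6, SLC25A12 had 5.95 and SLC25A2 had 0.0306. Of the genes of ammonia and glutamine, GLUD1 (glutamate dehydrogenase) had 201 FPKM and GLUL (glutamine synthetase) had 126. OAT and ODC1, which use the ornithine that OTC also uses, had 53.4 and 195 FPKM. CAD, which makes carbamoyl phosphate for pyrimidines, had 125 FPKM in a row shared with C2orf28, against 13.1 for CPS1. The arginine transporters SLC7A1 and SLC7A2 had 19.1 and 27.3 FPKM. NOS1 and NOS2 were the other genes below 1, with 0.0184 and 0.191 FPKM.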

How the data were processed

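The authors aligned the MNase-Seq and ChIP-Seq reads to hg19 with BWA, per the labels, called nucleosome positions with DANPOS, and called peaks of each mark at these positions with NUCLIZE, which filters on peak shape, P value, false discovery rate and enrichment over input. They deposited coordinates with identifiers and no scores. Per the labels, RNA-Seq was processed with TopHat2 2.1.0, Bowtie, HOMER 4.7 and edgeR, while the table has the layout of Cuffdiff. The authors deposited FPKM values in 2 columns, which add up to 857059 and 982212, beside the fold change, p-value and q-value of a test between both columns, which were not used.

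Each of the 5 peak lists was matched by identifier, and every peak reached 3 bp beyond its position on either side. Locus coordinates are as listed, and positions are written with the first base as 1. Strand was taken from the order of locus numbering, which gave the RefSeq strand for 99.4% of 8782 loci with their own coordinates. The mean of both columns was used, with no filter on low values. Positions were counted by midpoint, over the locus plus 10 kb and within 2 kb of the start. Stretches join marked positions at most 1 kb apart. The named genes are the 7 genes, the list of 34 genes, genes overlapping the windows and the 2 with the highest r for each gene with at least 3 marked positions. The value of 1 gene of the list of 34 is not reported here. The members and lists were chosen with earlier results of these data known. Alternatives were each column alone, limits of 0.1 and 5, flanks of 0, 5 and 20 kb, windows of 1, 5 and 10 kb at the start, any overlap of at least 1 bp and any base inside the window. Matching and counting were tested on simulated data. Values were computed with pandas 2.3.3 and scipy 1.17.1 (numpy 2.4.6) under Python 3.11.15, and drawn with matplotlib 3.10.9.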

Additional observations from a re-analysis of the deposited data

How the results depend on the processing

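The number of urea cycle genes at an FPKM of 1 or more was 6 with either column alone, 7 with a limit of 0.1 and 4 with a limit of 5, and that of the 34 related genes ran from 27 to 32. The marked positions over all 7 windows fell from 118 to 93 with no flank, and were 107 with 5 kb, 125 with 20 kb and 136 when a peak was given to every position it touched. With windows of the RefSeq length of each gene, added after the data had been seen, they were 95 and the trivalent positions 25 in place of 38. The marked positions were then 11 in place of 18 for ARG1, 9 in place of 21 for ARG2 and 15 in place of 19 for NAGS, whose listed loci hold other genes, and the trivalent positions differed in ARG1 and ARG2. Within 1 kb of the start the trivalent positions were 9 in place of 16, with 3 in place of 8 for ASS1 and 1 in place of 3 for CPS1, and 2 genes in place of 3 had at least 3. With no flank the trivalent positions were 1 in place of 3 for CPS1, 2 in place of 5 for ARG1 and 4 in place of 8 for NAGS. Each gene has 1 row, so summing rows left the FPKM as it was, and either column alone is the spread of the runs itself. No paired analysis was possible because there is 1 library per assay and no groups. The lists hold no read counts, so depth limits each call by an unknown amount.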

Other observations

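Regulators of liver genes were measured as well, from a list chosen with earlier results of these data known. Of 13 regulators, 12 had an FPKM of at least 1, against 51.3% of all named loci. Their median was 13.5. CEBPA had 71.0 FPKM, HNF4A, which has 2 rows, had 64.6 in its higher row, CEBPB had 38.1, the bile acid receptor gene NR1H4 had 36.5 and FOXA1, which also has 2 rows, had 32.3. The glucocorticoid receptor gene NR3C1 had 11.5 FPKM. The gene below 1 was GCGR, the glucagon receptor, with a mean of 0.137 FPKM, and it had 0 trivalent positions within 2 kb of its start. This was not particular to GCGR. Of the 9 regulators with a start of their own, 3 had 0 there, namely GCGR, NR3C1 and SP1 (10.2 FPKM), and 6 had at least 3. Among all 13714 loci with a start of their own, 7832 had 0 and 27.8% had at least 3. CEBPA, CEBPB and KLF15 had 6 trivalent positions each within 2 kb of the start, and FOXA2 had 10.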
